A study of Mus musculus with 12 samples.

Results

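Genomic imprinting is the marking of a gene in the egg or the sperm, by DNA methylation at a control region, so that the embryo later uses mainly the copy from one parent. Imprinted genes lie in clusters, and a cluster often holds growth promoting genes read from the paternal copy, growth restraining genes read from the maternal copy and long noncoding RNAs. Many of them are abundant in embryonic mesoderm, endoderm, placenta or brain and become less active after birth. The 50 imprinted genes described here were chosen by name, from a list of textbook mouse imprinted genes at 19 loci, out of 24946 genes in the expression data. The choice was made with earlier results of these data known. All 50 were found. Of these, 43 passed the filter on low values and were tested, and every locus kept at least 1 tested gene. The measurements are of total RNA per gene, so the parental copy behind a value was not measured, and "maternal" and "paternal" below are background on each gene.

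Embryoids are structures grown from mouse embryonic stem cells (ESC). By the labels, an aggregate started from 50 cells of the line E14TG2a, of the 129/Ola strain, received BMP4 for 8 h on day 3 (D3) and was then merged with an untreated aggregate started from 100 cells. Controls were made from untreated aggregates of the same sizes, merged on the same day, and carried the same line and strain in their labels. Both kinds were sequenced at D7 and D8 in 3 libraries per group, each from a pool of 12 structures by the labels (the methods of the study give another pool size and another unit for the BMP4 dose), and the replicates are described there as biologically independent. The labels name no genetic manipulation.

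Values are TPM, a level corrected for gene length and library total, which the authors are taken to have rounded to whole numbers, so a level under 0.5 is listed as 0 and the depth of the libraries is unknown. They summed to between 997897 and 998433 per library. Fold changes below are on the log2(TPM + 1) scale from limma, an empirical Bayes linear model fitted to all 13751 tested genes. Calls needed a Benjamini-Hochberg adjusted p under 0.05 together with an absolute log2 fold change over 1. On that scale the change of a weakly expressed gene is understated. The median of all tested genes was -0.19 at D7 and -0.18 at D8, and median-of-ratios scaling moved it to 0.01 and 0.02. The library names begin with WT for the 6 controls and with E14 for the 6 embryoids, and Hprt stood at 32 to 36 in the controls and at 0 to 1 in the embryoids. E14TG2a is generally described as lacking Hprt. A difference of line or clone cannot be told apart from the condition in any comparison of embryoids with controls below.

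The tissues also differed between the groups, and in bulk RNA fewer cells of a type and less RNA per cell cannot be told apart. Heart markers summed to 0 to 4 in the controls and to 499 to 2835 in the embryoids, and 6 of 6 tested markers were called higher on both days. The same held for 6 of 6 endothelial markers (sums of 3 to 6 against 119 to 189), and 5 of 6 mesenchyme markers were called higher on both days (16 to 20 against 156 to 863). Endoderm markers summed to 7 to 16 in the controls and to 83 to 139 in the embryoids, with 5 of 6 called higher at D7 and 6 of 6 at D8. Yolk sac endoderm markers summed to 21 to 78 in the controls and to 2 to 29 in the embryoids, with Apob at 0 in every library. Of 3 tested, 1 was called lower at D7, and 2 higher and 1 lower at D8. Most of the control sum was Ttr, the gene called lower, at 20 to 21 at D7 and 74 to 78 at D8, against 1 to 15 in the embryoids. Afp was at 0 to 1 in the controls and 7 to 13 in embryoids of D8, and Apoa1 at 0 to 1 and 1 to 2. Neuron markers went the other way, with 5 of 5 called lower on both days (sums of 906 to 2091 against 114 to 551), as did 4 of 4 tested forebrain markers (367 to 417 against 4 to 9). Neural progenitor markers summed to 284 to 358 in the controls and to 57 to 135 in the embryoids, with 4 of 4 called lower at D7 and 3 at D8. Of the trophoblast markers, Elf5, Tpbpa, Gcm1 and Prl3d1 were at 0 in all 12 libraries and Plac1 was at 2 to 6 in the embryoids. The part of these cell types in the values below was not tested.

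Across the embryoid to control comparison the imprinted genes called higher outnumbered those called lower. Of the 43 tested genes, 12 were called higher and 1 lower at D7, beside 7.56% and 8.33% of all tested genes. At D8, 11 were called higher and 3 lower, beside 10.2% and 9.61%, and with median-of-ratios scaling the split was 15 and 1. With no minimum fold the split was 18 and 18 at D7, beside 2806 higher and 6160 lower of all 13751 tested genes. At D8 it was 21 and 14, beside 3281 and 6110. With the minimum fold, 15.9% of all genes were called in total at D7 and 19.8% at D8. The same 11 genes were called on both days in the same direction, 10 of them higher (H19, Igf2, Igf2r, Airn, Dlk1, Peg3, Zim1, Phlda2, Grb10 and Ddc) and 1 lower (Nnat). Zim1, Phlda2 and Ddc had control means of 1 or less and passed the filter, a mean above 1 in some group, only through the embryoids. Peg13, called lower at D8, passed it only through the controls. The filter thus fixed the direction that a call of these genes could take. The median log2 fold change of the tested imprinted genes was 0.00 at D7 and 0.17 at D8. At D7 the 3 embryoid values lay wholly above the 3 control values for 17 genes and wholly below for 17, beside 19.1% and 42.0% of all genes. At D8 they lay above for 20 and below for 15, beside 25.0% and 48.3%. Calls fell in 12 of the 19 loci. Of the 17 tested genes read from the maternal copy, 5 were called higher on each day and 0 lower with limma. At an unadjusted p under 0.05, 7 were higher and 7 lower at D7, and 10 and 4 at D8. With the adjusted p and no minimum fold these were 7 and 7, and 9 and 4, beside the counts of all genes given above. Of the 25 read from the paternal copy, calls at D7 went up for 7 and down for 1, and calls at D8 up for 6 and down for 3. With no minimum fold they went up for 11 and down for 10 at D7, and up for 12 and down for 10 at D8.

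**Figure D1:**
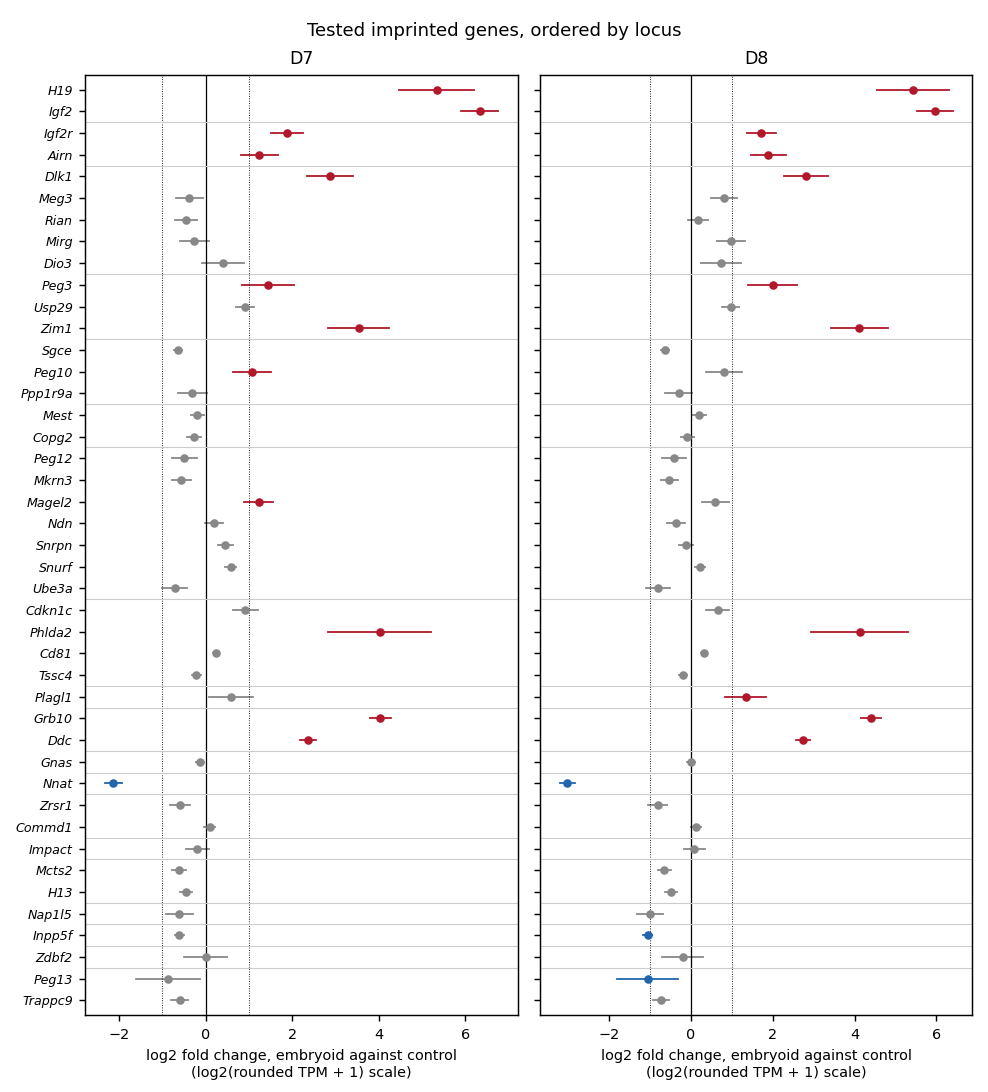
Log2 fold change of embryoids against controls (log2(rounded TPM + 1) scale) with its 95% interval for each of the 43 tested imprinted genes, at D7 on the left and at D8 on the right, ordered by locus with grey lines between loci. Red marks genes called higher, blue genes called lower and grey genes not called, and dotted lines stand at a log2 fold change of -1 and 1. Igf2 and H19 lie farthest to the right and Nnat farthest to the left on both days.

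The imprinted genes made up 0.754 to 0.769% of the total in controls of D7, 0.835 to 0.852% in controls of D8, 0.843 to 0.888% in embryoids of D7 and 0.856 to 1.05% in embryoids of D8. Gnas, Mest and Nnat held most of this in the controls. Without these 3 genes the members summed to 1866 to 2123 in the 6 controls and to 3756 to 5362 in the 6 embryoids, with no overlap. Nnat, 1 of the 3 left out, was at 643 to 1842 in the controls and 143 to 255 in the embryoids, so leaving it out widens this gap. Much of the gap was Igf2 alone, at 9 to 18 in the controls and 829 to 1387 in the embryoids. Igf2 was the gene of rank 8134 by mean level in controls of D7 and of rank 148 in embryoids of D7. At D8 its ranks were 7093 and 119.

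Some of these genes also give rise to small RNAs, and others start at promoters with a motif bound by the imprint protecting protein ZFP57. The miRNAs of H19 and Igf2 are shown because these hosts had the largest differences between embryoids and controls. Each hosts a hairpin on its own strand (RefSeq, GRCm38.p6), and the seed, bases 2 to 8, is in capitals. The miRNAs themselves were not measured here.
mmu-miR-675-5p, in H19: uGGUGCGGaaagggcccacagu
mmu-miR-675-3p, in H19: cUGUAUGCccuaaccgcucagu
mmu-miR-483-5p, in Igf2: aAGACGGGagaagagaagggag
mmu-miR-483-3p, in Igf2: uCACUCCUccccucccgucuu
The 4 seeds differ from each other. Among the other members, Mirg hosted 26 mature miRNAs on its own strand, Rian 6, Calcr 4, Meg3 3, and Rtl1, Usp29 and Mest 2 each, and Rtl1 had 11 on the opposite strand, which are cut from a transcript antisense to it.

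The motif TGCCGC was sought on both strands in windows of 300 bases, from 250 before to 50 after a start site. It was found in 16 of 59 promoters of 41 members (27.1%) and in 11.6% of 32851 promoters of all genes, with a median of 15 CpG in the promoters of the members and 7 in all promoters. Of the 41 genes, 15 had at least 1 promoter with the motif. The windows are not all distinct, so some matches are counted more than once. Snrpn and Snurf share a window with the motif, and the Mest windows starting at 30737800 and 30737803, both with it, overlap. The windows of Grb10, Nnat and Plagl1 are shown because these genes differed between the groups in 3 different ways, higher on both days, lower on both days and higher at D8. The match, here on the opposite strand as GCGGCA, is in capitals, and a match is a description of the letters and not a site.
Grb10, chr11:12037371-12037670, minus strand, GRCm38.p6: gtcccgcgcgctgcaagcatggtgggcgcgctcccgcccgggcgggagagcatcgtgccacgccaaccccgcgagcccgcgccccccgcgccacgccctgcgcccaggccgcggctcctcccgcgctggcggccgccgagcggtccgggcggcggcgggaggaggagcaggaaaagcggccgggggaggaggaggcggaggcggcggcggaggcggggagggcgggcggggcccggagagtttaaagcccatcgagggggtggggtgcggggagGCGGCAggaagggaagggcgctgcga
Nnat, chr2:157559828-157560127, plus strand, GRCm38.p6: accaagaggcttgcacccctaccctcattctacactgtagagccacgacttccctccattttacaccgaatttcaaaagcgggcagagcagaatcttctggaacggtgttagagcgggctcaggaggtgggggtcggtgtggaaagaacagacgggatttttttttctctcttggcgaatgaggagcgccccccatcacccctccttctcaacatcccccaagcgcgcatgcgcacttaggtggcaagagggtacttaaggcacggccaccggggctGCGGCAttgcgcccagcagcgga
Plagl1, chr10:13090582-13090881, plus strand, GRCm38.p6: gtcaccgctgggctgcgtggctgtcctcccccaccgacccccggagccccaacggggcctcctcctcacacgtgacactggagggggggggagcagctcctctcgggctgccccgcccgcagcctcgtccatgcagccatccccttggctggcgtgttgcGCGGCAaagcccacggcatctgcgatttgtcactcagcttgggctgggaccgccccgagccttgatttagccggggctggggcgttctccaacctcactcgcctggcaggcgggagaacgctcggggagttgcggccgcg
The Grb10 window holds 45 CpG, the Plagl1 window 26 and the Nnat window 17. DNA methylation was not measured.

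H19 and Igf2 had the largest log2 fold changes of the tested imprinted genes on both days. H19, a maternal noncoding RNA on chromosome 7 (chr7:142575529-142578143, minus strand), was listed at 3, 3 and 6 in controls of D7, at 6, 8 and 7 in controls of D8, at 288, 150 and 167 in embryoids of D7 and at 201, 638 and 314 in embryoids of D8. Every embryoid library was above every control, and the second D8 embryoid library was the highest of all. The embryoid mean was 50.4 times the control mean at D7 and 54.9 times at D8, with log2 fold changes of 5.33 (standard error 0.39, adjusted p = 8.01e-07) and 5.43 (adjusted p = 5.7e-07). Igf2, the paternal gene of a fetal growth factor (chr7:142650766-142666816, minus strand), stood at 9, 13 and 11 in controls of D7, 18, 18 and 17 in controls of D8, 912, 1145 and 829 in embryoids of D7 and 834, 1365 and 1387 in embryoids of D8. It too showed no overlap, and its log2 fold changes were 6.33 (standard error 0.20, adjusted p = 1.04e-09) and 5.96 (adjusted p = 1.45e-09), or 87.5 and 67.7 times the control mean. Of the 75-base windows of the Igf2 transcript, 75.8% also lie in the annotated gene Gm49394, so how the counting shared such reads bears on its level. These neighbours are known to share enhancers while being read from opposite parental copies. The ratio of Igf2 to H19 within a library was 1.83 to 4.33 in the controls and 2.14 to 7.63 in the embryoids, so the ranges of the ratio overlapped although both levels did not.

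Igf2r, the maternal receptor that clears IGF2 from the cell surface (chr17:12682406-12769664, minus strand), was called higher as well. It stood at 19, 25 and 24 in controls of D7, 30, 25 and 27 in controls of D8, 92, 76 and 89 in embryoids of D7 and 69, 112 and 102 in embryoids of D8. The lowest embryoid was above the highest control, and the log2 fold change was 1.88 at D7 (standard error 0.16, adjusted p = 1.63e-06) and 1.72 at D8 (adjusted p = 2.62e-06). Airn is the paternal noncoding RNA that runs antisense through the start of Igf2r and is known to silence the paternal Igf2r copy in mouse. It was listed at 3, 4 and 2 in controls of D7, 2, 2 and 3 in controls of D8, 8, 7 and 10 in embryoids of D7 and 10, 13 and 11 in embryoids of D8. These values did not overlap either, and Airn was called at D7 (log2 fold change 1.24, adjusted p = 0.000168) and at D8 (1.89, adjusted p = 4.89e-06). At D7 the call was lost with a pseudocount of 5 (0.74). The genes overlap over 28354 bases on opposite strands and whether reads were counted by strand is not stated in the sources used here, so reads from Igf2r introns and from Airn cannot be told apart. Slc22a3, a maternal transporter of the placenta at this locus, was at 0 in every control and at 0 or 1 in the embryoids, below the filter.

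The Grb10 locus on chromosome 11 held the lowest adjusted p of the list. Grb10 encodes an adaptor that restrains growth signalling from insulin and IGF receptors, read from the maternal copy in most embryonic tissue and from the paternal copy in neurons (chr11:11930508-12038683, minus strand). It was listed at 26, 27 and 23 in controls of D7, at 18, 21 and 16 in controls of D8, at 407, 400 and 483 in embryoids of D7 and at 419, 357 and 445 in embryoids of D8. Replicates lay close together beside this difference, which was 17.0 times at D7 (log2 fold change 4.03, standard error 0.11, adjusted p = 1.58e-10) and 22.2 times at D8 (4.40, adjusted p = 6.56e-11). Ddc, the neighbouring gene for aromatic amino acid decarboxylase, is known to be imprinted in the embryonic heart. It was listed at 1 in all 6 controls, at 10, 9 and 9 in embryoids of D7 and at 13, 12 and 12 in embryoids of D8. The groups did not overlap, and the log2 fold changes were 2.37 (adjusted p = 8.09e-10) and 2.74 (adjusted p = 2.08e-10). With a control level of 1, the rounding leaves the fold itself uncertain.

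**Figure D2:**
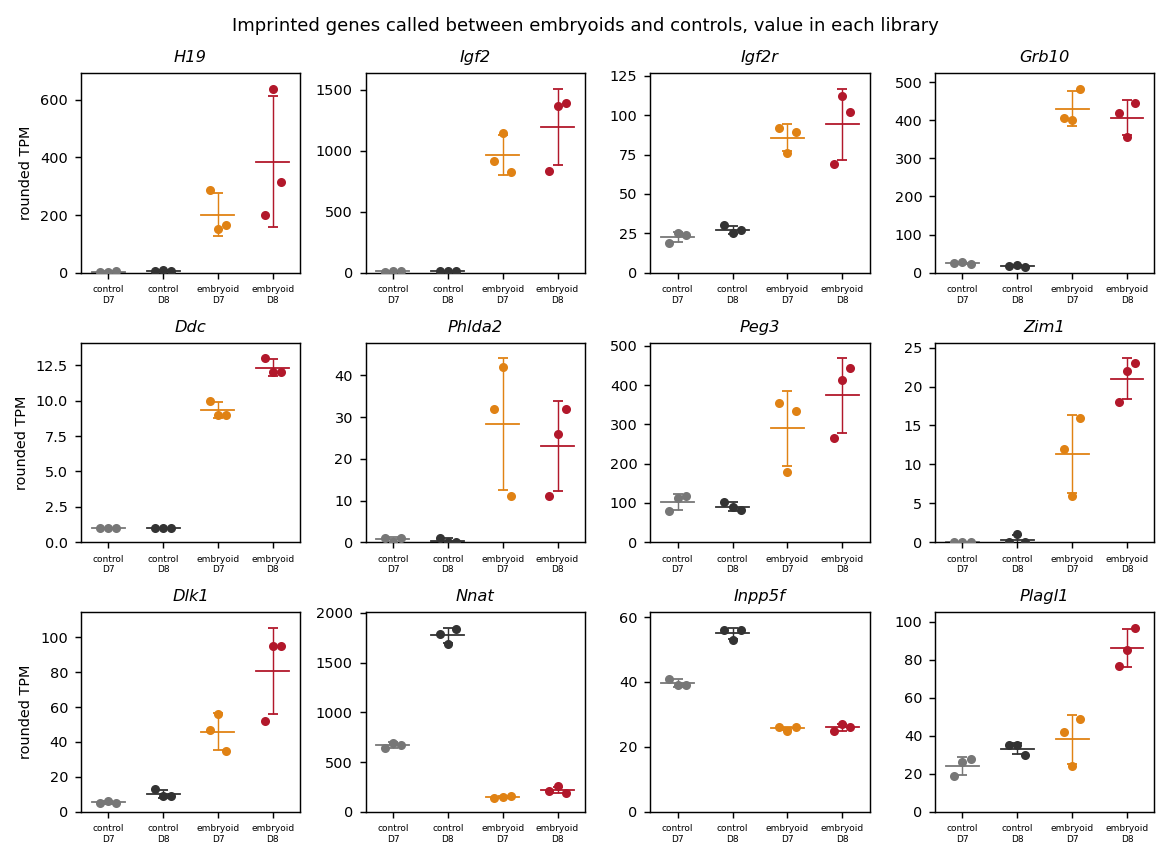
Rounded TPM of 12 imprinted genes in each of the 12 libraries, with 3 points per group, the group mean as a horizontal line and the SD as an error bar, each panel on its own linear axis from 0. Igf2 is at 9 to 18 in the controls and 829 to 1387 in the embryoids, Grb10 at 16 to 27 and 357 to 483, and Nnat at 643 to 1842 and 143 to 255.

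At the Kcnq1ot1 locus on chromosome 7, Phlda2 and Cdkn1c are maternal genes that restrain growth of the placenta and of the embryo. Phlda2 (chr7:143501545-143503150, minus strand) was listed at 1, 0 and 1 in controls of D7, 1, 0 and 0 in controls of D8, 32, 42 and 11 in embryoids of D7 and 11, 26 and 32 in embryoids of D8. The control values are at the limit of the rounding, so no fold of the means is given, and the log2 fold changes of 4.02 (standard error 0.54, adjusted p = 7.08e-05) and 4.13 (adjusted p = 4.87e-05) depend on the pseudocount. Cdkn1c, which encodes the cyclin dependent kinase inhibitor p57, was listed at 49, 50 and 51 in controls of D7 and 83, 107 and 97 in embryoids of D7, and at 77, 73 and 68 and 110, 145 and 96 at D8. The groups did not overlap on either day, but the log2 fold changes of 0.92 and 0.66 did not reach the minimum of 1. With median-of-ratios or quantile scaling Cdkn1c was called at D7. Slc22a18, a transporter gene next to Phlda2, was at 0 in all controls and at 1 in all 6 embryoids. Cd81, a membrane tetraspanin, ranged from 231 to 275 in the controls and from 277 to 341 in the embryoids, and Tssc4, a gene of spliceosome assembly, from 59 to 63 and from 50 to 55. Ascl2, a transcription factor of trophoblast, and Kcnq1ot1, the noncoding RNA that silences the cluster on the paternal copy, were listed at 0 in all 12 libraries. The annotated Kcnq1ot1 transcript has 93092 bases, over which a given number of reads makes a small TPM.

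At the Dlk1-Dio3 locus on chromosome 12, Dlk1 was called higher in embryoids on both days and no other gene was, although Mirg was called at D8 with a pseudocount of 0.5, median-of-ratios or quantile scaling and Meg3 at D8 with median-of-ratios scaling. Dlk1, a paternal gene for a Notch-like membrane protein that holds back differentiation (chr12:109452823-109463336, plus strand), was listed at 5, 6 and 5 in controls of D7, 13, 9 and 9 in controls of D8, 47, 56 and 35 in embryoids of D7 and 52, 95 and 95 in embryoids of D8. It was called higher on both days without overlap (log2 fold changes of 2.87, adjusted p = 1.52e-06, and 2.82, adjusted p = 1.43e-06). Meg3, the maternal noncoding RNA next to it (chr12:109541001-109571726, plus strand), was listed at 180, 180 and 170 in controls of D7, 98, 142 and 132 in controls of D8, 141, 139 and 126 in embryoids of D7 and 180, 258 and 218 in embryoids of D8. The embryoids lay below the controls at D7 and above them at D8, with log2 differences of -0.38 (standard error 0.14) and 0.82 that are each under the minimum of 1. The ratio of Meg3 to Dlk1 was 30.0 to 36.0 in controls of D7, 7.54 to 15.8 in controls of D8 and 2.29 to 3.60 in the embryoids of both days.

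The change of the embryoid to control difference from D7 to D8 was called for 2 of 43 imprinted genes, Meg3 and Mirg, both upward, beside 2.51% of all genes in either direction and 1.61% upward. For Meg3 the change was 1.20 (standard error 0.20, adjusted p = 0.00504). Mirg, a maternal transcript at the far end of the same cluster that hosts many miRNAs (chr12:109729764-109749460, plus strand), was listed at 30, 30 and 29 in controls of D7, 13, 17 and 15 in controls of D8, 24, 31 and 20 in embryoids of D7 and 27, 37 and 28 in embryoids of D8. The D8 controls were the lowest group and lay below every other library, and the change was 1.24 (standard error 0.22, adjusted p = 0.00635). Rian, which lies between them and hosts small nucleolar RNAs, had 107 to 112 in controls of D7, 77 to 86 in controls of D8, 70 to 89 in embryoids of D7 and 77 to 109 in embryoids of D8. Its change of 0.62 (adjusted p = 0.0352) was under the minimum of 1. The ratio of Meg3 to Rian was 1.17 to 1.80 in the other 9 libraries and 2.29 to 2.37 in embryoids of D8. Rtl1, a paternal gene derived from a retrotransposon, was at 0 or 1 in every library. Dio3, the paternal gene of the enzyme that inactivates thyroid hormone, was at 1 in controls of D7, 2 to 3 in controls of D8, 1 to 2 in embryoids of D7 and 3 to 6 in embryoids of D8.

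**Figure D3:**
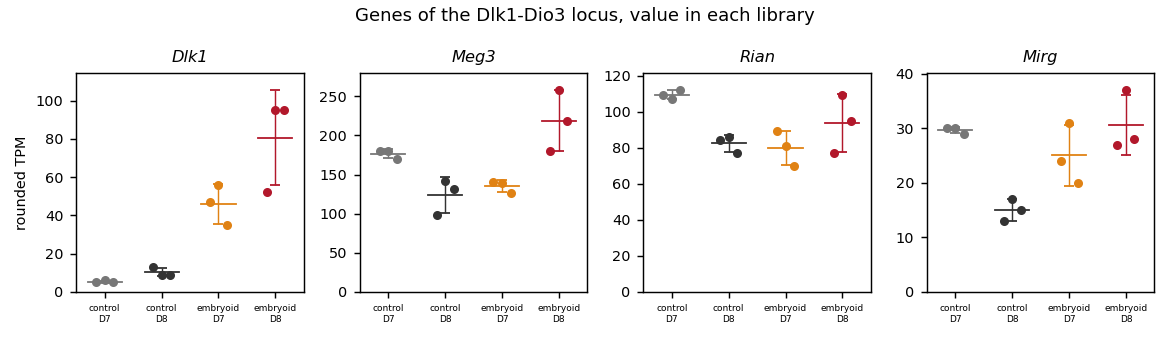
Rounded TPM of 4 genes of the Dlk1-Dio3 locus in each of the 12 libraries, with the group mean as a horizontal line and the SD as an error bar (3 libraries per group, linear axes from 0). Dlk1 is at 5 to 13 in the controls and 35 to 95 in the embryoids, while Mirg is at 13 to 17 in controls of D8 and at 20 to 37 in all other libraries.

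At the Peg3 locus on chromosome 7, Peg3 and Usp29 are paternal and start 146 bases apart in opposite directions, while Zim1 is maternal. Peg3, a zinc finger gene active in embryonic mesoderm and brain (chr7:6703892-6730431, minus strand), was listed at 80, 113 and 117 in controls of D7, 102, 89 and 81 in controls of D8, 354, 180 and 335 in embryoids of D7 and 266, 413 and 443 in embryoids of D8. It was called higher without overlap at D7 (log2 fold change 1.44, standard error 0.27, adjusted p = 0.000806) and at D8 (2.00, adjusted p = 6.6e-05). Usp29, a ubiquitin protease gene, was at 9 to 12 in the controls and 18 to 26 in the embryoids, also without overlap, and its log2 fold changes of 0.91 and 0.97 were under the minimum. With median-of-ratios or quantile scaling Usp29 was called on both days, and with a pseudocount of 0.5 at D8. The ratio of Peg3 to Usp29 was 7.36 to 12.6 in the controls and 9.47 to 18.6 in the embryoids. Zim1 (chr7:6671269-6696450, minus strand), another zinc finger gene, was listed at 0 in all D7 controls and at 0, 1 and 0 in controls of D8, against 12, 6 and 16 in embryoids of D7 and 18, 22 and 23 in embryoids of D8. The groups did not overlap, and the fitted log2 fold changes of 3.53 (adjusted p = 2.06e-06) and 4.12 (adjusted p = 4.89e-07) depend on the pseudocount and are no fold, since the controls are at the limit of the rounding.

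Sgce and Peg10 on chromosome 6 start 98 bases apart on opposite strands and are both paternal, but their log2 differences had opposite signs. Peg10, a retrotransposon derived gene needed for the placenta (chr6:4747306-4760517, plus strand), was listed at 117, 152 and 140 in controls of D7, 222, 187 and 196 in controls of D8, 374, 229 and 269 in embryoids of D7 and 267, 400 and 407 in embryoids of D8. The groups of each day did not overlap. Peg10 was called at D7 (log2 fold change 1.06, standard error 0.20, adjusted p = 0.000721), and the value fell to 0.96 without the first D7 control and to 0.87 without the first D7 embryoid library, below the minimum. At D8 it was 0.80, and it was called with median-of-ratios scaling. Sgce, which encodes epsilon-sarcoglycan, was at 105 to 107 in controls of D7 and 67 to 70 in embryoids of D7, and at 136 to 140 and 85 to 95 at D8, with log2 differences of -0.64 (standard error 0.04) and -0.62. The ratio of Peg10 to Sgce within a library was 1.09 to 1.63 in the 6 controls and 2.81 to 5.34 in the 6 embryoids. This ratio does not depend on the scaling of a library, and its ranges did not overlap. Ppp1r9a, a maternal gene for an actin binding protein, was at 11 to 16 in the controls and 7 to 12 in the embryoids, and Calcr, the calcitonin receptor gene, was at 0 except for a value of 1 in 1 D8 embryoid library.

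**Figure D4:**
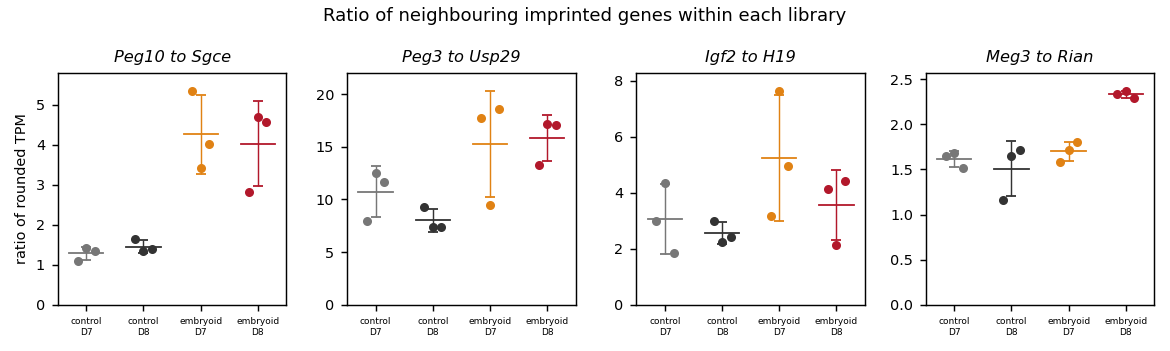
Ratio of the rounded TPM of neighbouring imprinted genes within each of the 12 libraries, with the group mean as a horizontal line and the SD as an error bar (3 libraries per group, linear axes from 0). The ratio of Peg10 to Sgce is 1.09 to 1.63 in the controls and 2.81 to 5.34 in the embryoids, whereas the ratio of Igf2 to H19 overlaps between them.

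Nnat was called lower in embryoids on both days, the only imprinted gene of which that held. It encodes neuronatin, a small membrane protein of developing neurons, and is read from the paternal copy (chr2:157560078-157562522, plus strand). It was listed at 643, 696 and 672 in controls of D7, 1789, 1690 and 1842 in controls of D8, 143, 151 and 163 in embryoids of D7 and 213, 255 and 192 in embryoids of D8. No embryoid library reached the lowest control, and the control mean was 4.40 times the embryoid mean at D7 (log2 fold change -2.13, standard error 0.09, adjusted p = 3.51e-09) and 8.06 times at D8 (-3.01, adjusted p = 1.79e-10). Nnat was also the only 1 of 43 imprinted genes called between D7 and D8 in the controls, beside 2.73% of all genes in either direction and 2.53% higher, where it rose by 1.40 on the log2 scale (adjusted p = 2.43e-06). The neuron markers summed to 906 to 947 in controls of D7 and 1972 to 2091 in controls of D8, and their part in this was not tested. In the embryoids Nnat differed between the days by 0.52. The difference between embryoids and controls changed by -0.88 from D7 to D8 (adjusted p = 0.00189), under the minimum of 1, and was called with quantile scaling.

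Plagl1, the paternal gene of a zinc finger protein that in mouse is known to act on other imprinted genes (chr10:13060504-13131694, plus strand), was listed at 19, 26 and 28 in controls of D7, 35, 35 and 30 in controls of D8, 42, 24 and 49 in embryoids of D7 and 77, 85 and 97 in embryoids of D8. The groups overlapped at D7 (log2 fold change 0.59) and not at D8, when it was called higher (1.34, standard error 0.23, adjusted p = 0.000336). From D7 to D8 in embryoids 2 of 43 imprinted genes were called, both higher, beside 2.66% of all genes in either direction and 2.53% higher. They were Plagl1 (1.20, adjusted p = 0.00437) and Dio3 (1.07, adjusted p = 0.00597). Without the second D7 embryoid library the value of Plagl1 was 0.91, under the minimum, and without the third D8 embryoid library that of Dio3 was 0.90, so that each of these left 1 gene called. Without the third D7 embryoid library Dio3 was at 0.88. When the 6 embryoid libraries were fitted alone, neither passed (adjusted p = 0.0502 and 0.0591).

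In the Snrpn-Ube3a cluster on chromosome 7, the region of Prader-Willi and Angelman syndromes in human, 1 gene was called. Magel2, a paternal gene of hypothalamic development (chr7:62377010-62381640, plus strand), was listed at 2 in each D7 control, at 3, 4 and 3 in controls of D8, at 6 in each D7 embryoid and at 4, 6 and 7 in embryoids of D8. It was called at D7 (log2 fold change 1.22, adjusted p = 3.28e-05) and not at D8 (0.60), when the groups overlapped, and with a pseudocount of 5 the D7 value was 0.65. Ndn, which encodes necdin, a protein of neurons that have left the cell cycle, was at 110 to 125 in controls of D7, 209 to 212 in controls of D8, 117 to 151 in embryoids of D7 and 142 to 177 in embryoids of D8. Snrpn, a splicing protein gene, was at 18 to 21 and 32 to 37 in the controls and at 27 to 28 and 29 to 33 in the embryoids of D7 and D8. Snurf lies within the Snrpn transcript, and all of its 75-base windows are shared, so its reads cannot be told apart from those of Snrpn, whereas 22.2% of the Snrpn windows are shared. It was at 17 to 18 and 24 to 26 in the controls and at 26 to 27 and 28 to 31 in the embryoids. Ube3a, the ubiquitin ligase read from the maternal copy in neurons, was at 12 to 19 in the controls and 6 to 10 in the embryoids, with log2 differences of -0.72 and -0.81. Of its 75-base windows, 25.4% also lie in other annotated genes, Snhg14 among them, and how such reads were counted is not known. Peg12 was at 17 to 22 and 11 to 16, and Mkrn3, a gene for a RING finger protein known for its part in the timing of puberty, at 7 to 10 and 4 to 7.

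At the Gnas, Mest, Commd1, H13 and Impact loci no gene was called in any of the 5 comparisons. Gnas, the gene of the stimulatory G protein subunit with several promoters of different imprinting, was the most abundant member, at 3230 to 3367 in the controls and 2864 to 3462 in the embryoids. Mest, a paternal gene abundant in embryonic mesoderm, followed it in controls of D7 and in the embryoids, with 1702 to 1815 in controls of D7, 1144 to 1327 in controls of D8 and 1360 to 1657 in the embryoids. In all, 7 imprinted genes were at 100 or more in every library and 40 were above 0 in all 12. Copg2, which overlaps Mest by 912 bases on the other strand, was at 97 to 108 in the controls and 80 to 105 in the embryoids. Commd1 was at 152 to 190 and 170 to 207, and Zrsr1, a splicing factor retrogene in an intron of Commd1, at 7 to 9 and 4 to 5. Mcts2, a retrogene inside H13, was at 76 to 90 and 48 to 55, and H13, a signal peptide peptidase gene, at 22 to 29 and 15 to 20. Impact, a regulator of translation, was at 77 to 102 and 68 to 103.

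Inpp5f, a phosphoinositide phosphatase gene with a paternal isoform of the brain (chr7:128611328-128696425, plus strand), was listed at 41, 39 and 39 in controls of D7, 56, 53 and 56 in controls of D8, 26, 25 and 26 in embryoids of D7 and 25, 27 and 26 in embryoids of D8. The groups did not overlap on either day, and it was called lower at D8 only (log2 fold change -1.05, standard error 0.05, adjusted p = 8.81e-09, against -0.61 at D7). The D8 value was under the minimum with a pseudocount of 5 (-0.95), with median-of-ratios scaling (-0.85) and with quantile scaling (-0.85). Peg13, a paternal noncoding RNA of the brain inside Trappc9, was at 1 to 2 in controls of D7, 2 to 3 in controls of D8 and 0 to 1 in the embryoids. It was called lower at D8 (-1.06, adjusted p = 0.0150), and without the third D8 control or the first D8 embryoid library it was not (adjusted p = 0.0590 and 0.0662). The call was also lost with a pseudocount of 5 (-0.37) and with median-of-ratios scaling (-0.94), and the gene is not tested with a filter on a mean above 5. Trappc9, a maternal gene of vesicle transport in the brain, was at 41 to 57 in the controls and 24 to 35 in the embryoids, and Kcnk9, a potassium channel gene, was at 0 or 1 in every library. Nap1l5, a paternal retrogene, was at 3 in controls of D7, 5 in controls of D8 and 1 to 2 in the embryoids, and its D8 log2 difference was at the minimum fold and not above it. Zdbf2 was at 1 or 2 in every library.

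Genes that protect or set imprints were taken as a second list. Of its 14 genes, 12 were tested with limma, and 0 were called on either day. At an unadjusted p under 0.05, 1 was higher and 3 lower at D7, and 0 higher and 5 lower at D8. With the adjusted p and no minimum fold these were 1 and 3, and 0 and 4. Of all 13751 tested genes, 2806 were then higher and 6160 lower at D7, and 3281 higher and 6110 lower at D8. Zfp57, the zinc finger protein that keeps methylation at imprinted control regions, was at 73 to 109 in the controls and 66 to 97 in the embryoids. Its cofactor Trim28 was at 117 to 142 and 111 to 141, the maintenance methyltransferase Dnmt1 at 176 to 202 and 144 to 227, and its partner Uhrf1 at 218 to 260 and 229 to 274. Ctcf, the insulator protein that binds the unmethylated H19 control region, was at 123 to 136 and 106 to 132. Zfp445, another zinc finger protein that protects imprints, was at 58 to 71 in the controls and 32 to 52 in the embryoids, with log2 differences of -0.53 and -0.46 (adjusted p = 0.00732 and 0.0144). Setdb1, a histone methyltransferase, was at 99 to 110 and 72 to 96, with log2 differences of -0.28 and -0.35. For these 2 genes the embryoids lay wholly below the controls on both days, as they did for 42.0% of all tested genes at D7 and 48.3% at D8. The largest difference of the list was that of Tet3, an enzyme that oxidizes methylated cytosine, at D8 (28 to 33 against 17 to 18, log2 fold change -0.77). Dnmt3l, a cofactor that sets imprints in germ cells, was listed at 0 in all 12 libraries and Dppa3 in 11 of them.

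Of 22 further imprinted genes outside the list, 15 were tested, of which 3 were called at D7, each higher, and 7 at D8, of which 6 were higher and 1 lower. Of all tested genes, 15.9% were called at D7 (7.56% higher) and 19.8% at D8 (10.2% higher). Slc38a4, a paternal amino acid transporter gene known from placenta and liver, was listed at 1, 1 and 0 in controls of D7, 1, 0 and 0 in controls of D8, 74, 62 and 49 in embryoids of D7 and 57, 91 and 96 in embryoids of D8. Its fitted log2 fold changes of 5.28 at D7 and 5.99 at D8 depend on the pseudocount, since the controls are at the limit of the rounding. Asb4, a gene of the Peg10 cluster found in embryonic vessels, was at 1 to 3 in the controls, 11 to 16 in embryoids of D7 and 29 to 48 in embryoids of D8 (log2 fold changes of 2.63, adjusted p = 1.16e-06, and 3.33, adjusted p = 1.42e-07). Tspan32 was at 0 in all controls and at 1 to 5 in the embryoids. The lower gene was Osbpl5, named after its values were seen, at 10 to 17 in the controls and 5 to 8 in the embryoids, with a log2 fold change of -1.09 at D8. Of 11 genes next to the loci and outside both lists of imprinted genes, 10 were tested, with 1 called at D7, lower, and 4 at D8, 1 higher and 3 lower. Beside them, 15.9% of all tested genes were called at D7 (8.33% lower) and 19.8% at D8 (9.61% lower). Whether these neighbours are imprinted themselves was not tested. Phactr2, beside Plagl1, was the higher gene, at 3 to 7 in the controls and 9 to 18 in the embryoids. The lower ones included Pon2, beside Ppp1r9a, at 54 to 67 and 26 to 33. Of 6 paralogs of imprinted retrogenes 0 were called on either day with limma, and 1 at D7 and 2 at D8 were lower at an unadjusted p under 0.05. The same counts held with the adjusted p and no minimum fold, beside 6160 and 6110 of all 13751 tested genes lower.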

How the data were processed

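Bulk RNA sequencing gave 12 libraries, 3 for each combination of condition and day, grouped by their labels. Reads were single-end reads of 75 bases. Per the labels and the methods of the study, the authors aligned them to mm10 with STAR 2.6.1a, used SAMtools 0.1.20, featureCounts and DESeq2, and normalized expression as TPM. The deposited values were handled as a score of inferred unit, called TPM in the text: all 24946 genes have whole numbers, with library sums of 997897 to 998433, and they were taken as TPM rounded by the authors. The sources used here do not give read depth or strandedness, and counting error was not computed. No column was left out, as each belonged to a library.

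The 50 members are a list of names, and the members and all other lists were chosen with earlier results of these data known. Values were tested as log2(value + 1), for 13751 genes whose mean exceeded 1 in some group, with limma 3.58.1 (R 4.3.3, statmod 1.5.0) in a model of 4 group means with trended, robust variances. The 5 contrasts compared the conditions on each day, the days within each condition and the change of the first difference between days, with Benjamini-Hochberg adjustment over all tested genes. Groups listed at 0 or 1 throughout add little spread, so standard errors of such genes can be too small. A gene that passed the filter in 1 condition alone could be called only in that direction, also in the other lists. The same procedure was tested on simulated data with known changes. Members with a mean of 5 or more in a group and a call in at least 1 contrast are given by library, the others by range, except that Cdkn1c is also given by library, and of the other lists at most 3 called genes are named beside genes of the imprint maintenance list. Gene positions are from the GENCODE vM21 annotation of GRCm38, the assembly mm10 names, and promoters and miRNAs from RefSeq. Transcripts were compared with those of other genes in windows of 75 bases on either strand. Other settings were no filter or a mean above 5, a pseudocount of 0.5 or 5, median-of-ratios or quantile scaling, plain variances, no minimum fold, only the 6 libraries compared, a replicate block and leaving out each library. Tables and figures were made with pandas 2.3.3 and matplotlib 3.10.9 in Python 3.11.15.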

Additional observations from a re-analysis of the deposited data

Results flagged for a closer look

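In 2 imprinted genes the embryoid to control difference changed between D7 and D8 by a test of the change itself, beside 2.51% of all genes. For Meg3 the log2 difference went from -0.38 to 0.82, a change of 1.20, with D7 controls at 170 to 180 and D8 controls at 98 to 142 against 126 to 141 and 180 to 258 in the embryoids. For Mirg it went from -0.26 to 0.98, a change of 1.24, with the controls at 29 to 30 and 13 to 17 and the embryoids at 20 to 31 and 27 to 37. Both calls were kept in each fit that left out 1 library, with a change of Meg3 between 1.04 and 1.33 and of Mirg between 1.10 and 1.40. Both genes lie on the same strand of chromosome 12, so they are not independent cases.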

How the results depend on the processing

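The 32 fold changes of single imprinted genes gave 700 values under other settings, of which 682 kept their call, 18 lost it and 0 changed sign, and 25 of the 32 kept it under every setting run. The genes that lost a call were Airn, Magel2 and Peg10 at D7, Inpp5f and Peg13 at D8, and Dio3 and Plagl1 between the embryoid days. Among all 43 tested genes, 4 at D7 and 3 at D8 changed sign with median-of-ratios scaling and 5 at D8 with quantile scaling, none of them called. The count called higher at D7, 12 above, was 10 with a pseudocount of 5, 14 with either scaling, 18 with no minimum fold and 11 to 12 when each library was left out. Calls were gained for Usp29 and Cdkn1c at D7 with either scaling, for Usp29 and Mirg at D8 with either scaling or a pseudocount of 0.5, and for Meg3 and Peg10 at D8 with median-of-ratios scaling. Nap1l5 was gained at D8 with a pseudocount of 0.5 or quantile scaling. The count lower at D7 was 2 in place of 1 with a pseudocount of 0.5 and 18 with no minimum fold, and 1 to 2 when each library was left out, with Peg13 gained without the third D7 embryoid library. The count higher at D8 was 21 in place of 11 with no minimum fold and 11 to 14 with a library left out. The count lower at D8, 3 above, was 1 with a pseudocount of 5, 1 with median-of-ratios scaling, 14 with no minimum fold and 2 to 3 with a library left out. Of the changes between D7 and D8, 9 in place of 2 passed with no minimum fold, 3 with quantile scaling, where Nnat was gained, and 2 in each fit with a library left out. Between the embryoid days, 2 above, 1 gene was called with a pseudocount of 5, 1 with a mean above 5, 1 with quantile scaling, 11 with no minimum fold, 0 with the 6 embryoid libraries alone and 1 to 3 with a library left out. Between the control days, 1 above, 2 were called with median-of-ratios scaling, 2 with quantile scaling, 22 with no minimum fold and 1 to 2 with a library left out, with Mirg gained without the second D8 control. Where a setting has fewer genes, fewer libraries or no minimum fold its construction moves the count, and otherwise the cause was not tested. The replicate block changed no call, with 12 and 1 at D7, 11 and 3 at D8, 2, 2 and 1. Deviations of libraries with the same replicate number correlated at a median r of -0.026 (18 pairs), against 0.012 for different numbers (36 pairs). Libraries of the same number thus showed no shared deviation. Whether they were made together cannot be told from this. The change between days uses all 12 libraries and has no value for 6. Rounding limits every value under about 5.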
